A study of Mus musculus with 3 samples.

Results

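Ctrl cluster 11 was 1 of the 14 clusters into which Cell Ranger had grouped the nuclei of the Ctrl library, and 1 of 2 Ctrl clusters named macrophage-like from their marker genes. It was chosen here by its own values, as the cluster in which Rgs1, Atp6v0d2, Retnla, Lyve1, Cd163 and St18 stood high. Its leading genes are therefore a description, and no test of this cluster against other nuclei was made. The cluster held 2273906 of the 53980929 UMIs (single transcript molecules) of the Ctrl library, a share of 4.21% (exact binomial 95% interval 4.21 to 4.22). As many UMIs would come from 508 nuclei of the median UMI total, of 12071 for the Ctrl library and 48990 for all 3 libraries. For the Ob library the same figure was 28281. It lies above the largest number of cells reported for any sample of the study. Such figures divide UMIs by a median and can overstate the number of nuclei. The tables used here list clusters and not single nuclei, so the nuclei themselves, and barcodes that libraries may share, could not be counted.

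The study followed the epididymal fat of male C57BL/6J mice, the visceral depot next to the testis, while obesity developed. Ctrl mice ate an ordinary diet, labelled as full diet. The mice of the Mid_Ob and Ob stages were given a high fat diet (60% fat) and were taken while they grew obese and after they had become obese. The mice were bought at 5 weeks of age and kept for 1 week before the study, and the 3 stages are placed at weeks 5, 7 and 9, counted from a start that is not given. On the 10x Genomics platform 1 library of nuclei was made per stage, from the pooled fat of 8 mice, so differences between stages could not be checked in replicates, and stage and library cannot be told apart.

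Resident macrophages of fat take up dead cells, iron and debris and are known by surface receptors such as CD163, LYVE1 and the mannose receptor MRC1. In obese fat, macrophages that crowd around dying adipocytes take up their lipid, and they switch on genes of the lysosome and of lipid handling, among them Trem2, Gpnmb, Lgals3 and Mmp12, a program known as that of lipid-associated macrophages. The lysosome is kept acid by the vacuolar ATPase (V-ATPase), a proton pump of many subunits. Atp6v0d2 encodes a subunit form of the pump known from osteoclasts and some macrophages, and the MiT/TFE transcription factors switch on many pump and lysosome genes.

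Values are counts scaled to 1000000 UMIs of a cluster (CPM), with exact Poisson intervals at 95%. A ratio of CPM is given with its 95% interval, and genes are called higher or lower where the ratio passed 2-fold with at least 50 counts in the pair compared. All intervals cover counting error only, since mice were pooled. Cluster 11 had 20506 genes with at least 1 UMI. The Ctrl library also held testis and epididymis, in clusters 6, 7, 8, 12, 13 and 14, and without these the share of cluster 11 was 7.95%. Whether all nuclei of cluster 11 came from fat, and not in part from these organs, was not tested. Markers of these organs stood in cluster 11 at 0.193 of their level in the whole library (807 UMIs), against 0.352 in cluster 9 (1621 UMIs), the other macrophage-like cluster of Ctrl. Whether free RNA or doublets carried these transcripts into cluster 11, and their part in the results, was not tested.

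Genes that define macrophages were high in cluster 11, and markers of adipocytes, fibroblasts, mesothelium and germ cells were low. Of 18 macrophage identity genes, 16 were over 2-fold higher than in the other Ctrl clusters pooled and 1 was lower, with a median log2 ratio of 2.98, against a background of 10.2% higher and 40.8% lower and a median of -0.58 over all 20598 genes compared. These genes helped to form the cluster, so nothing is read from these counts. Csf1r, the receptor for the macrophage growth factor CSF1, stood at 227 CPM (208 to 247) and Adgre1, which encodes F4/80, at 553 CPM (523 to 585). Spi1, the transcription factor PU.1 of myeloid cells, stood at 175 CPM and Mrc1 at 1555 CPM. Cx3cr1, the fractalkine receptor, was the gene over 2-fold lower, at 11.9 CPM (7.82 to 17.3). Aif1 also lay below the pool, by less than 2-fold.

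Of the 14 Ctrl clusters, cluster 11 had the lowest sums of adipocyte, fibroblast, mesothelial and germ cell markers. The adipocyte list summed to 587 CPM, against 1737 to 19428 CPM in the other clusters, and the fibroblast or progenitor list to 435 CPM, against 509 to 6584 CPM. The mesothelial list summed to 212 CPM and the list of spermatids and spermatocytes to 349 CPM. Among markers of other leukocytes the picture was mixed. The neutrophil genes S100a8, S100a9, Retnlg and Mmp8, the T and NK cell genes Cd3g and Nkg7, the mast cell genes Cma1, Fcer1a and Ms4a2 and the monocyte genes Ly6c2, Chil3 and Treml4 had no UMI in cluster 11. A count of 0 among 2273906 UMIs allows up to 1.32 CPM. The T and NK cell list as a whole summed to 51.0 CPM. The dendritic cell list summed to 224 CPM, at place 10 of the 14 Ctrl clusters, and the B cell list to 493 CPM, at place 12. Of 10 dendritic cell genes compared with the other Ctrl clusters 4 were higher (Cd209a, Batf3, Siglech and Clec9a) and 3 lower. Over all genes 10.2% were higher and 40.8% lower. The neutrophil list summed to 45.3 CPM, ranking cluster 11 at place 2 of the 14 Ctrl clusters, nearly all of it Csf3r, the receptor for the growth factor G-CSF, at 43.5 CPM. The monocyte list summed to 786 CPM, at place 4 of the 14. Of its 10 genes compared with the other Ctrl clusters, 4 were higher (Ccr2, F10, Fn1 and Spn) and 4 lower, with Fn1, the matrix protein fibronectin, at 384 CPM and F10, a clotting factor, at 188 CPM.

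The 6 genes that mark cluster 11 were each highest there among the 14 Ctrl clusters. Rgs1, which dampens signals of G protein-coupled receptors in leukocytes, stood at 272 CPM (251 to 295), against 69.9 CPM in cluster 9 and at most 22.0 CPM in the other 12 clusters. Atp6v0d2 stood at 1004 CPM (963 to 1046), against 348 CPM in cluster 9 and at most 65.0 CPM elsewhere. Retnla, a secreted protein of alternatively activated mouse macrophages, stood at 394 CPM (368 to 420.2), against 93.1 CPM in cluster 9 and 99.6 CPM in cluster 1. Cluster 11 alone held 54.3% (51.4 to 57.2) of all Rgs1 UMIs of the library, 48.1% (46.7 to 49.5) of Atp6v0d2 and 46.5% (44.3 to 48.8) of Retnla.

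Lyve1, the hyaluronan receptor of vessel-associated macrophages and of lymph vessels, stood at 114 CPM (100.5 to 129), against 48.8 CPM in cluster 9 and at most 15.8 CPM elsewhere. Cd163, the receptor that clears hemoglobin bound to haptoglobin, stood at 549 CPM (519 to 581), against 312 CPM in cluster 9 and at most 61.2 CPM elsewhere. St18, a zinc finger transcription factor, stood at 617 CPM (585 to 649.7), against 167 CPM in cluster 9 and 92.3 CPM in the germ cell-like cluster 7. Cluster 11 held 42.7% of the library's Lyve1 UMIs, 41.2% of Cd163 and 42.6% of St18. For each of the 6 genes the interval of cluster 11 lay above those of all other Ctrl clusters, as the plot of the 6 marker genes by Ctrl cluster shows.

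**Figure D1:**
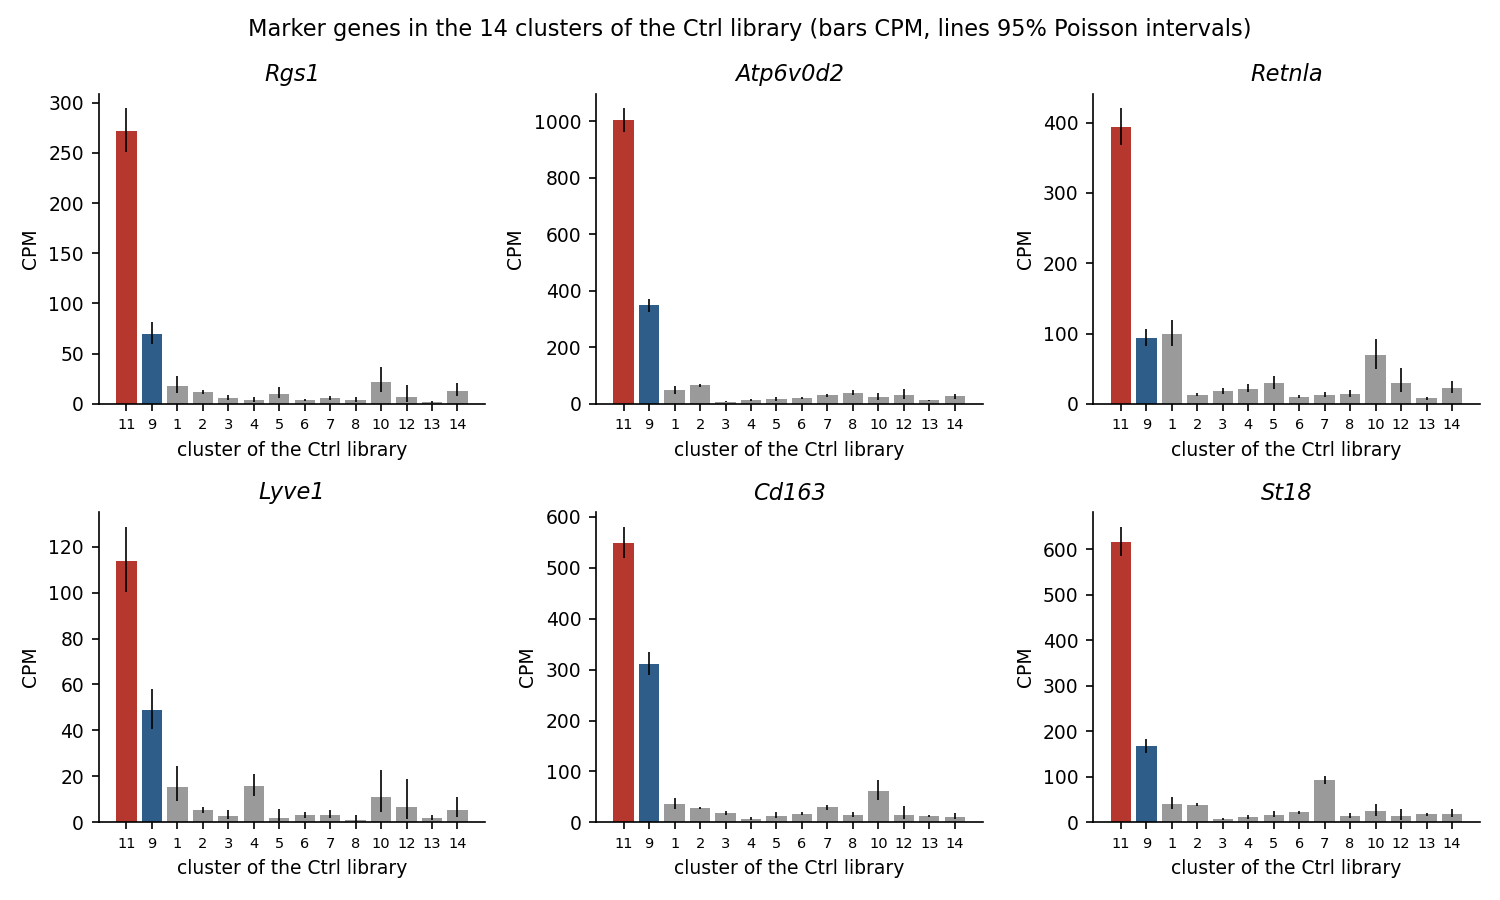
Level of the 6 marker genes in each of the 14 clusters of the Ctrl library, in CPM, with cluster 11 in red, cluster 9 in blue and the other clusters in grey. Lines are exact Poisson 95% intervals, and cluster 11 stands highest in every panel, from 114 CPM for Lyve1 to 1004 CPM for Atp6v0d2.

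The other leading genes of cluster 11 had various roles. F13a1, a clotting factor subunit made by resident macrophages, stood at 2739.8 CPM, 15.2-fold (14.7 to 15.7) above the other clusters pooled. The inhibitory or paired receptors Cd300lb, Cd300a and Cd200r1 were 15.5-, 13.3- and 13.9-fold above them, and Tlr7 and Tlr8, endosomal sensors of RNA, 13.1- and 13.1-fold. Itgax, the integrin CD11c, was 13.4-fold (11.7 to 15.3) and Lgals3, which encodes galectin 3, 14.2-fold (13.5 to 15) above the pool. Hk3, a hexokinase of myeloid cells, was 18.9-fold above, Hpgds, which makes prostaglandin D2, 13.2-fold, and Gpr137b, a lysosomal membrane protein, 13.6-fold. The immediate early genes Atf3 and Fos, which also answer to tissue handling, were 15.5- and 14.4-fold above. The ratios describe the cluster by the values that formed it.

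Cluster 9 was the nearest cluster of the same library, and set against it cluster 11 had more transcripts of lipid-associated macrophage genes and of the proton pump. Of 10198 genes compared, 2.14% were over 2-fold higher in cluster 11 than in cluster 9 and 12% lower, with a median log2 ratio of -0.11. Among lipid-associated macrophage genes, 7 of 17 were higher (Mmp12, Itgax, Gpnmb, Atp6v0d2, Ctsk, Lgals3 and Trem2) and 1 was lower, with a median of 0.84. Among V-ATPase subunits 2 of 18 were higher and 0 lower, with a median of 0.72, and all 18 ratios lay above 1. Since the 2 clusters were split on these same values, the ratios describe how the split fell and are no test of it.

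Mmp12, the macrophage elastase, had the highest ratio of these lists, with 1449 CPM (1400.0 to 1499) in cluster 11 and 324 CPM in cluster 9, a ratio of 4.48 (4.14 to 4.84). Gpnmb, a transmembrane glycoprotein of macrophages that store lipid, stood at 1461 CPM in cluster 11 and 459 CPM in cluster 9, a ratio of 3.19 (2.98 to 3.41). Itgax stood at 156 CPM, against 48.0 CPM, a ratio of 3.25 (2.63 to 4.03). Ctsk, a collagen-degrading cathepsin, and Trem2, the lipid-sensing receptor, had lower counts and ratios of 2.81 (2.20 to 3.61) and 2.26 (1.71 to 3.0). Cd36, a scavenger receptor for oxidized lipid, stood at 2108 CPM in cluster 11 and 1380.2 CPM in cluster 9, a ratio of 1.53 (1.46 to 1.60). Fabp4, a fatty acid carrier that adipocytes make in large amounts, went the other way, with 200.1 CPM in cluster 11 and 514 CPM in cluster 9.

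Of the pump, Atp6v0d2 had the ratio farthest from 1, 2.88 (2.67 to 3.12), and Atp6v1c1, a subunit of the cytosolic part, stood at 2.0 (1.71 to 2.35). Atp6v0a1 and Tcirg1, alternative forms of the membrane subunit a, stood at 812 and 350.5 CPM in cluster 11, against 453 and 184 CPM in cluster 9. Atp6v1b2, a subunit that binds ATP, stood at 473 CPM, against 249 CPM. The pump genes thus lay above cluster 9 together, each by less than Atp6v0d2. Of 25 genes of lysosomal enzymes and membrane 2 were higher, Ctsk and Gla (alpha-galactosidase A), and 0 lower, with a median of 0.47. Among MiT/TFE factors and their partners 1 of 11 was higher, Fnip2, a folliculin partner, with 1254 CPM in cluster 11 and 468 CPM in cluster 9. Mitf itself stood at 1957 CPM (1899.9 to 2015), against 1057 CPM, a ratio of 1.85 (1.76 to 1.94).

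The resident macrophage genes also lay mostly above cluster 9, by smaller steps. Of 17 compared, 4 were higher (Ccl24, Pf4, Lyve1 and Cd209f) and 0 lower, with a median of 0.46 and 16 ratios above 1. Lyve1 had a ratio of 2.34 (1.88 to 2.92), Cd163 of 1.76 (1.61 to 1.93) and F13a1 of 1.63 (1.57 to 1.69). Timd4, a receptor for the lipid that marks dead cells and a gene of long-lived resident macrophages, was the one below 1, with 68.6 CPM in cluster 11 and 103 CPM in cluster 9 (0.544 to 0.818 for the ratio). Cd209f belongs to a family of close copies among which the authors' counting could have split reads. Retnla, the leading marker of alternative activation, had a ratio of 4.23 (3.66 to 4.90). Of the immediate early and heat shock genes 3 of 5 were higher, Fos (3.69), Jun (2.36) and Atf3 (2.33).

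**Figure D2:**
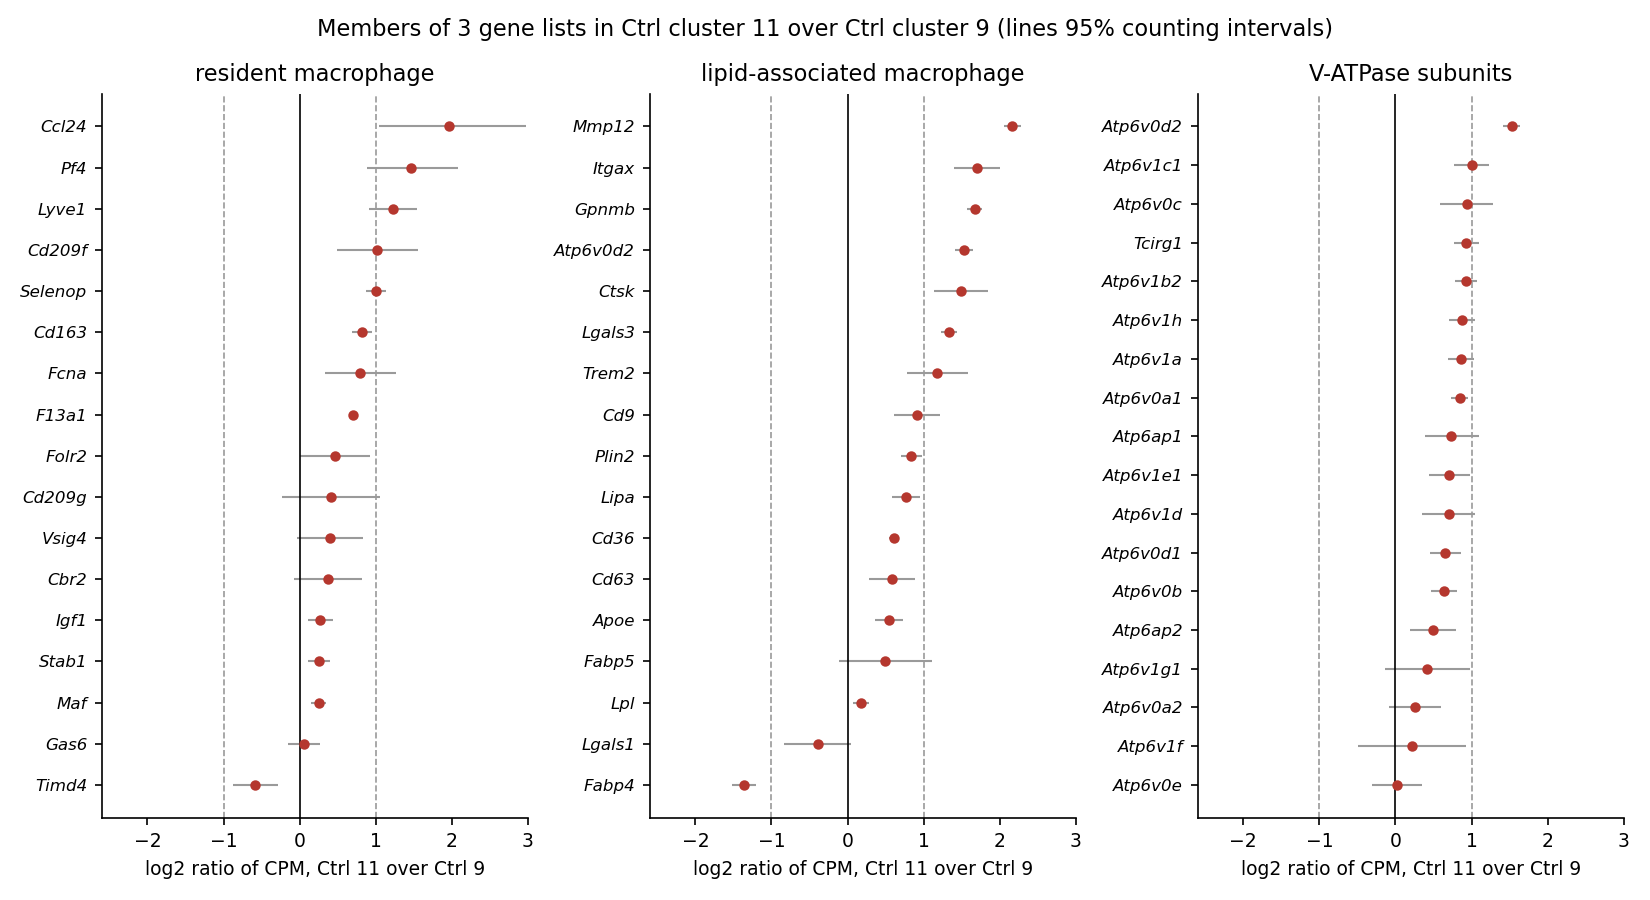
Log2 ratio of CPM in Ctrl cluster 11 over Ctrl cluster 9 for the compared members of the resident macrophage, lipid-associated macrophage and V-ATPase lists. Points are ratios and lines 95% counting intervals, and dashed lines mark 2-fold. The 18 V-ATPase subunits all lie right of 0, and Mmp12 lies farthest to the right among the lipid-associated genes with a ratio of 4.48.

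General macrophage genes stood higher in cluster 11 as well, and markers of other cells stood lower. The identity list summed to 7075 CPM in cluster 11 and 5179 CPM in cluster 9, with 1 of 17 higher (Lyz2) and 0 lower and a median log2 ratio of 0.33. Antigen presentation genes (MHC class II) lay above 1 for 7 of 7 (0.43), and genes of leukocyte G protein signalling for 17 of 21 (0.53). Interferon response genes lay above 1 for 1 of 5 (-0.34) and cell division genes for 2 of 12 (-0.71). Runx1, a transcription factor of blood cells, stood at 1592 CPM in cluster 11 and 899.9 CPM in cluster 9, while Adgre1 stood at 553 and 598 CPM. When the clusters were scaled to an equal identity sum, 5 lipid-associated genes stayed over 2-fold higher and 1 lower (median 0.39), V-ATPase subunits lay above 1 for 14 of 18 (0.27) and resident genes for 9 of 17 (0.01), with an all-gene median of -0.56. Adipocyte markers were lower in cluster 11 for 13 of 14, fibroblast markers for 12 of 13, mesothelial markers for 7 of 8 and endothelial markers for 7 of 7, and none of these was higher. The adipocyte list summed to 587 CPM in cluster 11 and 2816 CPM in cluster 9, and the fibroblast list to 435 and 1380 CPM. With the library's mean profile subtracted as free RNA, 7 lipid-associated genes were higher and 1 lower (0.64), and 17 of 18 pump genes lay above 1 (0.69). Beyond that, the part of other cells' transcripts in the differences was not tested.

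Among the genes lowest in cluster 11 against cluster 9, some were highest in other clusters of the library and some in cluster 9 itself. Opcml, an adhesion protein of neurons, stood at 5.28 CPM in cluster 11 and 108 CPM in cluster 9, and was highest in cluster 4 at 1077 CPM. Vegfc, a growth factor of lymph vessels, stood at 7.04 and 121 CPM and was highest in the mesothelial-like cluster 3 at 519 CPM. Alox15, a lipoxygenase known from resident macrophages of the mouse peritoneum, had its highest level of the library in cluster 9. It stood at 9.24 CPM (5.72 to 14.1) in cluster 11 and 109 CPM in cluster 9, a ratio of 0.0850 (0.0517 to 0.133). Padi4, an enzyme that converts arginine in proteins to citrulline, followed the same pattern, with 9.67 CPM in cluster 11 and 82.3 CPM in cluster 9. In the cholesterol and lipid list 4 of 23 genes were lower (Dgat2, Scd1, Lpcat2 and Dgat1), near the background of 12% of all genes.

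The promoters of pump genes and of lipid-associated genes were searched for motifs because most genes of both groups lay above cluster 9. A further reason was that MiT/TFE and AP-1 factors have known binding letters. Atp6v0d2 had no promoter in the table. Promoters were read from RefSeq (GRCm38.p6), from 250 bases before to 50 bases after the start of a gene. The E-box CACGTG, the letters bound by MiT/TFE and other factors and the same on both strands, was found in 4 of the 12 V-ATPase genes with a promoter in the table (33.3%), in 9 of 22 lysosomal genes (40.9%) and in 8.09% of all 27025 genes. The letters TGAGTCA or TGACTCA on the other strand, bound by AP-1 (Fos with Jun), were found in 3 of 13 lipid-associated genes (23.1%), 3 of 15 resident genes (20%) and 5.95% of all genes. PU.1 letters, GAGGAAG or CTTCCTC on the other strand, were found in 7 of 15 resident genes (46.7%), 6 of 13 lipid-associated genes (46.2%) and 15.4% of all genes. The E-box was in 1 of 13 lipid-associated genes (7.69%) and 3 of 14 cholesterol and lipid genes (21.4%). PU.1 letters were also in 4 of 12 identity genes (33.3%) and 6 of 19 G protein genes (31.6%). The M-box, TCATGTG or CACATGA, was in 1 of 12 V-ATPase, 1 of 13 lipid-associated, 4 of 22 lysosomal and 4.31% of all genes. Part of the MAF site, TGCTGAC or GTCAGCA, was in 1 of 12 V-ATPase and 0 of 13 lipid-associated genes. It was in 3 of 15 resident genes and 5.28% of all genes. A match describes letters and not a bound site. Atp6v1a and Atp6v0b (E-box) and Gpnmb, Mmp12 and Itgax (AP-1) are printed with the matched letters in capitals, at chr16:44139210-44139509 (minus strand), chr4:117887280-117887579 (minus), chr6:49036268-49036567 (plus), chr9:7347124-7347423 (plus) and chr7:128129300-128129599 (plus), in this order.
Atp6v1a: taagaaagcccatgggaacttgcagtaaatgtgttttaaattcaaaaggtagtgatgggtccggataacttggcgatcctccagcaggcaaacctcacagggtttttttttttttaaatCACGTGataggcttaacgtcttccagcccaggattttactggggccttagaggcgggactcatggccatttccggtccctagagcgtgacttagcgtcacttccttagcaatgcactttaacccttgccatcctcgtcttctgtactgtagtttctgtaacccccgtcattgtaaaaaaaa
Atp6v0b: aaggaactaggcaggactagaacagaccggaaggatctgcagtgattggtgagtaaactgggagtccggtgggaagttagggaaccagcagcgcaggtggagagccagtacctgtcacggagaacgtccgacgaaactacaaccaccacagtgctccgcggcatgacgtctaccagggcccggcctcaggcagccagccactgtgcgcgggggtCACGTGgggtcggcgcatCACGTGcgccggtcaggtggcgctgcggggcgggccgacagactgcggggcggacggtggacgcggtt
Gpnmb: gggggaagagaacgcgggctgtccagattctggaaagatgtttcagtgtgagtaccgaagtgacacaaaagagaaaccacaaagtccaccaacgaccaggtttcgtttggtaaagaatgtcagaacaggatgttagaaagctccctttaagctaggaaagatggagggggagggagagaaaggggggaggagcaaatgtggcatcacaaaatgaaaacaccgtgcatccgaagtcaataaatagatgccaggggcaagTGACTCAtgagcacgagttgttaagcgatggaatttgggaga
Mmp12: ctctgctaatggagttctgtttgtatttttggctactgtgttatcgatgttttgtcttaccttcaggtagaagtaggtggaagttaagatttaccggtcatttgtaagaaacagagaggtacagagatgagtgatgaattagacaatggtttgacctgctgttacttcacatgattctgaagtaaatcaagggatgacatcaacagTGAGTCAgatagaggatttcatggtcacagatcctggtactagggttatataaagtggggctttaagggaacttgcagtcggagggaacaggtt
Itgax: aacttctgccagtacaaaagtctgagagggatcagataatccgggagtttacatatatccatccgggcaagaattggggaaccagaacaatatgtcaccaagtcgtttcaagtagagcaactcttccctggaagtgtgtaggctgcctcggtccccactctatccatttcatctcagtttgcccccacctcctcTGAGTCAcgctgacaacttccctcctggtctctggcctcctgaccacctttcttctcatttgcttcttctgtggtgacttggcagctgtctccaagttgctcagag

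The capitals fall at different distances from the start. The E-box of Atp6v1a began 131 bases before it and those of Atp6v0b 36 and 18 bases before it, and the AP-1 letters began 44 bases before the start of Mmp12, 56 before that of Itgax and at base 9 after that of Gpnmb. In cluster 11 Atp6v1a stood at 324 CPM, against 178 CPM in cluster 9, and Atp6v0b at 290.2 CPM, against 187 CPM. Of the 6 marker genes, Retnla and Cd163 had a promoter in the table, and neither held the E-box or the AP-1 letters.

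The Mid_Ob library, from the fat of mice on the way to obesity, had 1 macrophage-like cluster, cluster 4, and cluster 11 of Ctrl stood above it in lipid-associated genes as well. In Ctrl the macrophage-like nuclei were split into clusters 11 and 9, with lipid-associated sums of 9502 and 4907 CPM. Mid_Ob cluster 4 summed to 4459 CPM. The ratios thus set the higher side of the Ctrl split against it, and do not compare all macrophages of the stages. Of 10369 genes compared, 3.08% were higher in Ctrl cluster 11 than in Mid_Ob cluster 4 and 6.53% lower, with a median log2 ratio of -0.09. Of 17 lipid-associated genes 7 were higher and 0 lower, with a median of 0.72 (Mmp12, Ctsk, Gpnmb, Atp6v0d2, Itgax, Trem2 and Lgals3). Mmp12 stood at 1449 CPM in Ctrl cluster 11 and 169.9 CPM in Mid_Ob cluster 4, a ratio of 8.53 (7.82 to 9.32), and Gpnmb at 1461 and 324 CPM (4.51, 4.22 to 4.83). Atp6v0d2 stood at 1004 and 316 CPM, and Tcirg1 was the other pump gene over 2-fold higher, with 16 of 18 ratios above 1 and a list median of 0.52.

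Identity and resident genes were closer between these clusters. Of 17 identity genes 0 were higher and 1 lower, with a median of -0.14, and of 17 resident genes 2 were higher (Fcna and Ccl24) and 1 lower (Cd209g), with a median of 0.32. F13a1 stood at 2739.8 CPM in Ctrl cluster 11 and 2428 CPM in Mid_Ob cluster 4, Mrc1 at 1555 and 1602 CPM and Lyve1 at 114 and 71.6 CPM. Genes of antigen presentation lay lower in Ctrl cluster 11, with 0 of 9 MHC class II genes higher, 2 lower (H2-Ob and H2-DMb1), no ratio above 1 and a median of -0.52. Ciita, the master regulator of these genes, stood at 135 CPM (120.3 to 151) in Ctrl cluster 11 and 253 CPM in Mid_Ob cluster 4, and Cd74, the chain that escorts class II molecules, at 257 and 349 CPM. Markers of dendritic cells, which are rich in class II molecules, were lower for 4 of 7 (Flt3, Clec9a, Itgae and Cd209a) with a median of -1.32 and no ratio above 1, and adipocyte markers were lower for 10 of 13. The part of these cells' transcripts in the class II result was not tested. Cell division genes were lower for 6 of 14 (median -0.87), with Mki67, a protein of dividing cells, at 16.7 and 48.2 CPM. With free RNA subtracted they were lower for 12 of 14 (-1.85). The profile subtracted from Ctrl cluster 11 included cluster 13, of testis or epididymis, where this list summed to 1804 CPM. Counts left under 3 were set to 3, and the part of both in the larger difference was not tested.

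At both ends of this comparison stood genes of organs outside the fat. The lowest were genes of the epididymal duct, with 10 of 10 epididymal markers lower and a median of -6.91, and among the highest stood Spag16, a gene of the sperm tail, at 139.8 CPM in Ctrl cluster 11 and 0.564 CPM in Mid_Ob cluster 4. Over whole libraries Spag16 stood at 1568 CPM in Ctrl and 24.8 CPM in Mid_Ob, so the same gene differed between the whole libraries. Npas2, a transcription factor of the circadian clock, had a ratio of 16.6 (10.6 to 27.4), with 98.5 CPM in Ctrl cluster 11 and 5.92 CPM in Mid_Ob cluster 4. The sources used here do not give the hour of sampling, and its part was not tested.

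The Ob library had 6 macrophage-like clusters, and resident and lipid-associated genes were highest in different ones, clusters 20 and 2. As these Ob clusters hold the ends of both lists, every other macrophage-like cluster lies between them, and the levels of Ctrl cluster 11 are given for where it lies. The resident list summed to 5959 CPM in Ctrl cluster 11, against 13067 CPM in Ob cluster 20, 921 CPM in Ob cluster 2, 3979 CPM in Ctrl cluster 9 and 4777 CPM in Mid_Ob cluster 4. The lipid-associated list summed to 9502 CPM in Ctrl cluster 11, against 3180 CPM in Ob cluster 20, 19986 CPM in Ob cluster 2, 4907 CPM in Ctrl cluster 9 and 4459 CPM in Mid_Ob cluster 4. The V-ATPase list summed to 4632 CPM in Ctrl cluster 11, above 2359 CPM in Ob cluster 20 and below 7767 CPM in Ob cluster 2. Ob cluster 2 was added to the comparisons after its values had been seen.

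**Figure D3:**
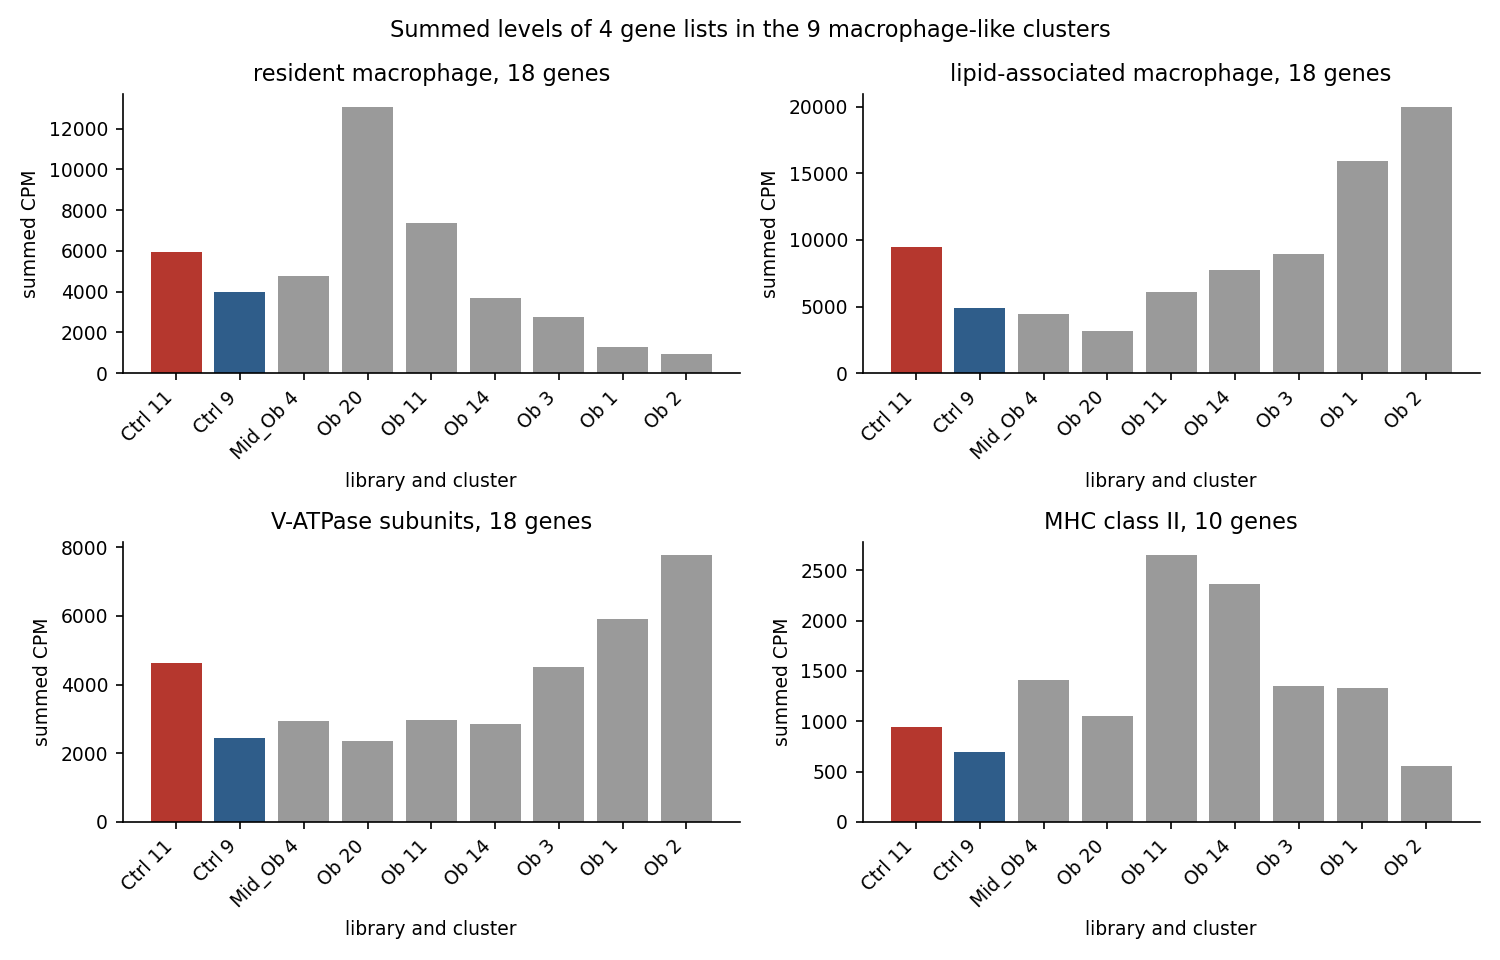
Summed CPM of the resident macrophage, lipid-associated macrophage, V-ATPase and MHC class II lists in the 9 macrophage-like clusters of the 3 libraries, with Ctrl cluster 11 in red and Ctrl cluster 9 in blue. In Ctrl cluster 11 the resident list stands at 5959 CPM and the lipid-associated list at 9502 CPM, between the levels of Ob clusters 20 and 2, which lie at opposite ends.

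Against Ob cluster 20, led by Lyve1 and Cd163, Ctrl cluster 11 was lower in resident genes and higher in lipid-associated ones. Of 8606 genes compared, 9.88% were higher in Ctrl cluster 11 and 4.75% lower, with a median of 0.06. Of 17 resident genes 1 was higher (Ccl24) and 7 were lower, with a median of -0.68. Lyve1 stood at 114 CPM in Ctrl cluster 11 and 245 CPM in Ob cluster 20, a ratio of 0.465 (0.396 to 0.544), and F13a1 at 2739.8 and 7584 CPM (0.361, 0.350 to 0.372). Cd163 stood at 549 and 1180.4 CPM (0.465, 0.433 to 0.500). Timd4 and Selenop, a selenium carrier, were within 2-fold, at 68.6 and 602 CPM in Ctrl cluster 11 and 69.6 and 862 CPM in Ob cluster 20.

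Of 17 lipid-associated genes 11 were higher in Ctrl cluster 11 than in Ob cluster 20 and 2 lower, Fabp4 and Lgals1, with a median of 1.72. Mmp12 stood at 1449 CPM in Ctrl cluster 11 and 46.2 CPM in Ob cluster 20, a ratio of 31.4 (25.1 to 39.7), and Gpnmb at 1461 and 57.9 CPM (25.2, 20.7 to 31.1). Itgax stood at 156 and 5.26 CPM, and Atp6v0d2 at 1004 and 101 CPM (9.92, 8.50 to 11.6). Beyond the lists, Efr3b, which holds a lipid kinase at the plasma membrane, Igf2bp2, an RNA-binding protein, and Chst11, which adds sulfate to chondroitin, had ratios of 35.1, 29.7 and 27.3. Of 18 pump genes 5 were higher than in Ob cluster 20 and 0 lower, with a median of 0.76. Among cholesterol and lipid genes 8 of 23 were higher, among them the cholesterol exporter Abcg1 (181 and 53.2 CPM) and its regulator Nr1h3, the liver X receptor alpha (36.9 and 12.9 CPM), and 1 was lower.

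Against Ob cluster 2, led by Gpnmb, the order of the groups was the reverse. Of 11173 genes compared, 9.54% were higher in Ctrl cluster 11 and 8.32% lower, with a median of -0.03. Of 17 resident genes 15 were higher and 0 lower, with a median of 3.77. Cd163 stood at 549 CPM in Ctrl cluster 11 and 9.53 CPM in Ob cluster 2, a ratio of 57.6 (45.1 to 74.7), and Lyve1 at 114 and 2.94 CPM (38.7, 24.8 to 63.6). F13a1 stood at 2739.8 and 55.2 CPM, and outside the list Lifr, the receptor for leukemia inhibitory factor, at 566 and 13.7 CPM and Ednrb, an endothelin receptor, at 202 and 5.05 CPM.

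Of 18 lipid-associated genes 1 was higher in Ctrl cluster 11 than in Ob cluster 2, Apoe, and 10 were lower, with a median of -1.05. Gpnmb stood at 1461 CPM in Ctrl cluster 11 and 3190.1 CPM in Ob cluster 2 (0.458, 0.442 to 0.475), and Trem2 at 70.4 and 156 CPM (0.450, 0.379 to 0.532). Mmp12 and Itgax were within 2-fold, at 1449 and 156 CPM in Ctrl cluster 11 and 2452 and 177 CPM in Ob cluster 2. Of 18 V-ATPase subunits 0 were higher and 1 was lower, Atp6v0a1, with a median of -0.31. Mitf stood at 1957 and 2339.6 CPM and Fnip2 at 1254 and 1758 CPM. Tnf, the inflammatory cytokine, stood at 3.96 CPM (1.81 to 7.51) in Ctrl cluster 11 and 32.5 CPM in Ob cluster 2, and chemokines and cytokines as a list were higher for 2 of 15 and lower for 7, with a median of -0.32.

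The 6 marker genes of Ctrl cluster 11 thus split between the Ob clusters. Lyve1 and Cd163 stood highest in Ob cluster 20, at 245 and 1180.4 CPM. Rgs1, Atp6v0d2 and St18 stood highest in Ob cluster 2, at 655, 1774 and 1345 CPM, and at 15.8, 101 and 127 CPM in Ob cluster 20. Retnla was highest in Ctrl cluster 11 itself, at 394 CPM, against 199.5 CPM in Mid_Ob cluster 4, 207 CPM in Ob cluster 20 and 32.5 CPM in Ob cluster 2. Markers of other cells differed between these clusters too. Adipocyte markers were lower in Ctrl cluster 11 for 9 of 13 over Ob cluster 20 and 11 of 14 over Ob cluster 2. Mesothelial markers were higher for 3 of 4 and 7 of 8 and germ cell markers for 5 of 6 and 7 of 9. No marker of these lists passed 2-fold the other way. The part of these cells' transcripts in the result was not tested.

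Genes that separated Ob clusters 20 and 2 by over 4-fold were used to place the other macrophage-like clusters. Since they were chosen for that gap, most clusters lie between the ends for most genes, and nothing is read from that. Of 301 genes higher in Ob cluster 20, Ctrl cluster 11 lay between the clusters for 285, above both for 14 and below both for 2, and the counts between were 253 for Ctrl cluster 9, 277 for Mid_Ob cluster 4 and 296 for Ob cluster 3. On the scale of log2(CPM + 10), where 0 is Ob cluster 2 and 1 is Ob cluster 20, its median position was 0.66, with quartiles of 0.51 and 0.80. Ctrl cluster 9 and Mid_Ob cluster 4 stood at 0.67 and 0.66, and Ob clusters 11, 14, 3 and 1 at 0.75, 0.56, 0.41 and 0.12. On these genes Ctrl cluster 11 was thus placed like the other macrophage-like clusters before obesity and during its development.

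Of 434 genes higher in Ob cluster 2, Ctrl cluster 11 lay between the clusters for 384, above both for 45 and below both for 5, and the counts between were 359 for Ctrl cluster 9, 386 for Mid_Ob cluster 4 and 414 for Ob cluster 3. Here 0 is Ob cluster 20 and 1 is Ob cluster 2, and the median position of Ctrl cluster 11 was 0.68 (quartiles 0.51 and 0.83). Ctrl cluster 9 and Mid_Ob cluster 4 stood at 0.47 and 0.48, and the Ob clusters 11, 14, 3 and 1 at 0.20, 0.38, 0.58 and 0.83. Ctrl cluster 11 was thus nearer to Ob cluster 2 on these genes than Ctrl cluster 9, Mid_Ob cluster 4 and the Ob clusters 3, 11 and 14, and its quartile range overlapped those of Ctrl cluster 9, Mid_Ob cluster 4 and Ob clusters 3, 14 and 1. Whether single nuclei of cluster 11 carried both groups of genes, or a mixture of nuclei did, cannot be told apart from sums over a cluster.

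**Figure D4:**
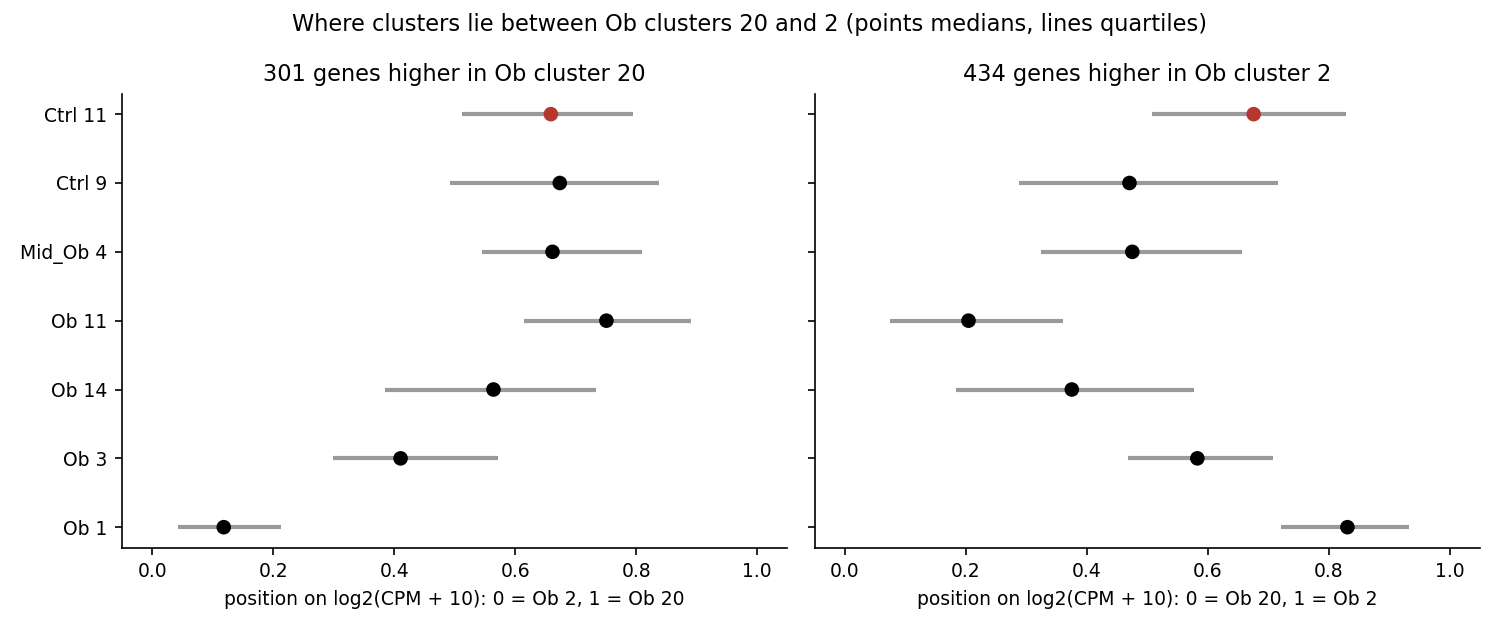
Median position (points) and quartiles (lines) of 7 macrophage-like clusters between Ob clusters 20 and 2 on log2(CPM + 10), for the 301 genes over 4-fold higher in Ob cluster 20 and the 434 genes over 4-fold higher in Ob cluster 2. Ctrl cluster 11, in red, stands at 0.66 and 0.68.

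Across genes, the profile of Ctrl cluster 11 was most like that of Ob cluster 3. Pearson's r of log2(CPM + 10) was 0.950 with Ob cluster 3 (11278 genes), 0.940 with Mid_Ob cluster 4 (10369 genes) and 0.919 with Ctrl cluster 9 (10198 genes). It was 0.915 with Ob cluster 2 and 0.897 with Ob cluster 20, and among the other Ctrl clusters the highest was 0.769, with the adipocyte-like cluster 2. Genes are not independent replicates, clusters of 1 library share its free RNA, and the sets of genes compared grow with the depth of a cluster, so these values are a description. Ob cluster 3, with 6921996 UMIs, had Atp6v0d2 at 983 CPM, close to the 1004 CPM of Ctrl cluster 11, and Mitf at 1969 CPM, against 1957 CPM in Ctrl cluster 11. The resident genes were farther apart, with Cd163 at 549 CPM in Ctrl cluster 11 and 144 CPM in Ob cluster 3, and Lyve1 at 114 and 24.0 CPM. Mmp12 stood at 1449 and 502 CPM and Gpnmb at 1461 and 664 CPM. The lipid-associated list as a whole was closer, with sums of 9502 CPM in Ctrl cluster 11 and 8944 CPM in Ob cluster 3. The V-ATPase list summed to 4632 and 4499.6 CPM.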

How the data were processed

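Nuclei of epididymal fat, pooled from 8 mice, gave 1 library per stage (Ctrl, Mid_Ob and Ob). The authors counted reads with Cell Ranger and the STAR aligner inside it and deposited 3 columns per cluster. The software version, build and annotation were not given in the sources used here. The signal column holds the mean count deposited by the authors, UMIs of a gene over the summed size factor of the nuclei. The log2 fold changes and adjusted p-values that the authors deposited for a cluster over the other nuclei of its library were not used. Dividing each column by its smallest step gave back counts, of which 100% were whole within 0.001. This step and the intervals were checked on simulated data. Cell Ranger chose the nuclei in the tables, and the sources do not say whether the study's doublet removal was applied to them. Libraries held 53980929, 57665213 and 111595518 UMIs in Ctrl, Mid_Ob and Ob, and counting intervals follow from the counts of each cluster.

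Ctrl cluster 11 was compared with the other Ctrl clusters pooled, Ctrl cluster 9, Mid_Ob cluster 4 and Ob clusters 20 and 2, by ratios of CPM with conditional binomial intervals and no test, since each stage had 1 library. A count of 0 was set to 3 in a ratio, and so was any count left under 3 when free RNA was subtracted. The cluster, its members and the gene lists were chosen with earlier results of these data known. Named genes are the 6 markers, the 25 highest ratios over the other Ctrl clusters, the 15 highest and 15 lowest over Ctrl cluster 9 and the 10 highest and 10 lowest over each other cluster, among genes with at least 200 counts, without Gm and Rik names and mitochondrial genes, and from each list the 4 with the highest CPM and those over 2-fold. The text takes examples from these. Ob cluster 2, the positions between Ob clusters 20 and 2, the scaling to equal identity genes and the motif searches were added after values had been seen. The other alternatives were other denominators, scalings, count minimums and pools, and subtraction of free RNA. The work was run in Python 3.11.15 with pandas 2.3.3, scipy 1.17.1, matplotlib 3.10.9 and numpy 2.4.6.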

Additional observations from a re-analysis of the deposited data

How the results depend on the processing

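No paired analysis was possible because each stage had 1 library. No replicate could be left out for the same reason. The UMI share of cluster 11 was 4.21%, and 7.95% without the testis and epididymis clusters. Counts of genes moved mostly with the minimum of counts, as their construction sets. With minimums of 20 and 200 counts in place of 50, the genes over 2-fold higher than in Ctrl cluster 9 numbered 369 and 101 (218 at 50) and the lower ones 2175 and 376 (1219 at 50). Over Mid_Ob cluster 4 the higher genes numbered 764 and 95 (319 at 50) and the lower ones 1233 and 168 (677 at 50). Over Ob cluster 20 they were 1731 and 289 (850 at 50) and 659 and 156 (409 at 50). Over Ob cluster 2 the higher genes numbered 1911 and 386 (1066 at 50), and the lower ones 447 at 200 (930 at 50). Over the other Ctrl clusters the higher genes numbered 3374 at a minimum of 20 (2097 at 50), and 3857 when clusters were scaled to an equal median ratio. That scaling left the other 8 counts of higher or lower genes within 1.5-fold. With free RNA subtracted, the genes higher than in Ctrl cluster 9 numbered 401, and with the clusters scaled to equal identity genes 66, against 2282 lower. Of the named genes, 4 changed direction over Mid_Ob cluster 4 when free RNA was subtracted, with log2 ratios of -3.10 for Akr1cl (1.26 before), -3.58 for Ctnna3 (2.69 before), 1.15 for Mest (-2.29 before) and 0.50 for Steap4 (-1.68 before). Counts left under 3 by the subtraction were set to 3, so such ratios can rest on that floor and not on measured counts. The cause of each change was not tested. The subtraction was not run for the pooled Ctrl clusters, and Ob clusters 20 and 2 had too few marker UMIs for it, 63 and 151. Ratios of genes with few counts, such as Tnf and Ccl8 in cluster 11, are limited by depth.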

Other observations

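Of 20 genes for the uptake of dead cells 12 were over 2-fold higher than in the other Ctrl clusters and 1 lower, against 10.2% and 40.8% of all genes. Over cluster 9, where 2.14% of all genes were higher and 12% lower, 0 of 18 passed 2-fold in either direction. Within 2-fold, 15 of the 18 ratios lay above 1, with a median log2 ratio of 0.53, against -0.11 over all genes. Mertk, a receptor for bridged dead cells, stood at 798 CPM (762 to 836), against 656 CPM in cluster 9, and its bridging ligand Pros1 at 344 CPM, against 215 CPM. The complement genes C1qa, C1qb and C1qc stood at 156, 184 and 172 CPM in cluster 11 and at 80.7, 118 and 111 CPM in cluster 9. Of 12 iron genes 0 were higher and 4 lower than in Ob cluster 20, against 9.88% and 4.75% of all genes. The iron importer Tfrc had the lowest ratio against Ob cluster 20, with 79.6 CPM in Ctrl cluster 11 and 225 CPM in Ob cluster 20, and the ferritin chains Fth1 and Ftl1 stood at 74.3 and 207 CPM, against 198 and 259.7 CPM. Tnfrsf11a, which encodes the osteoclast receptor RANK, stood at 345 CPM in Ctrl cluster 11 and 239.8 CPM in Ctrl cluster 9, and Dcstamp, a fusion protein of osteoclasts, at 33.9 and 13.2 CPM.

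Of the chemokines and cytokines, 9 of 14 were higher than in the other Ctrl clusters and 2 lower, against 10.2% and 40.8% of all genes. Ccl24, which attracts eosinophils, was highest there among the macrophage-like clusters, at 20.2 CPM (14.8 to 27.0), against 7.05 CPM in Mid_Ob cluster 4 and 9.36 CPM in Ob cluster 20. Ccl8 and Ccl6 stood at 7.92 and 206 CPM in Ctrl cluster 11 and at 95.9 and 807 CPM in Ob cluster 20. Ccr2, the receptor of monocytes for Ccl2, stood at 163 CPM, against 87.5 CPM in Ctrl cluster 9 and 499 CPM in Ob cluster 14. Cell division genes were higher than in Ob cluster 20 for 5 of 8, against 9.88% of all genes, with Top2a, a DNA topoisomerase, at 19.4 CPM in Ctrl cluster 11 and 4.09 CPM in Ob cluster 20. The list summed to 437 CPM in Ctrl cluster 11, at place 9 of the 14 Ctrl clusters. It was highest in cluster 13, among those of testis and epididymis, at 1804 CPM. Free RNA was not subtracted for Ob cluster 20, and its part in this difference was not tested.

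Cluster 1 of Ctrl, which was given no cell type name, held some lipid-associated transcripts at levels near those of cluster 11. The list summed to 9502 CPM in cluster 11 and 9143 CPM in cluster 1, with Mmp12 at 1449 and 1633 CPM and Gpnmb at 1461 and 1271 CPM. Lysosomal genes summed to 5940.4 CPM in cluster 11 and 9765 CPM in cluster 1. Atp6v0d2 did not follow, with 1004 CPM in cluster 11 and 48.1 CPM in cluster 1. Mitochondrial transcripts made up 0.141% of UMIs in cluster 11 and 1.85% in cluster 1. What cells cluster 1 held was not tested.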
